A study of Mus musculus with 2 samples.

Results

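The genes described here are 37 known macrophage, microglia and pan-myeloid genes, found by their symbols among 52636 gene rows of a pair of RNA-seq libraries labelled as mouse retina. All 37 symbols had a row in both tables. The first library came from mice lacking the microRNA miR-29a (labelled KO) and the second from wild-type mice (labelled WT). Per the labels, all mice were C57BL/6 and 8 weeks old, and each library pooled the retinas of 3 mice. The labels do not say how the miR-29a allele was made, or whether the knockout and wild-type mice were littermates.

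Macrophages are phagocytes that develop from monocytes or from precursors seeded into tissues before birth, and microglia are the resident macrophages of brain and retina. Their development depends on the transcription factor PU.1, encoded by Spi1, and their survival on the receptor for colony-stimulating factor 1, encoded by Csf1r. They recognise antibody-coated particles, microbial sugars, lipids and dying cells through families of surface receptors. Many of those receptors signal through small adaptor proteins that carry an immunoreceptor tyrosine-based activation motif (ITAM), among them Tyrobp and Fcer1g.

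There was 1 library per group, so no difference has a replicate check and none has a p-value. Every comparison is between these 2 libraries and cannot be told apart from a difference between 2 pools of mice. The library labelled KO, called the KO library below, held 24876925 counts, and the library labelled WT, the WT library, held 26805902. Levels are given as CPM, counts scaled to the library total, and fold values are ratios of CPM, KO over WT, with a 95% exact (Clopper-Pearson) interval. A gene was counted as higher or lower where the log2 ratio, taken after adding 0.5 to each CPM, reached 1 or -1. It also needed 50 or more counts in the higher library. The reads carry no molecular identifiers and so are not independent molecules, and the intervals hold counting error alone.

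The tissue label was set against marker genes. All 8 photoreceptor markers lay under 1 CPM in both libraries, and Arr3 had 0 counts in both. Of 8 markers of other retinal neurons, 6 had 0 counts in both, among them Grm6 and Pou4f2. The defining markers of retinal neurons were thus at or near 0, which goes against the tissue label in both libraries. The 9 fibroblast markers together took 17638 CPM in the KO library and 15318 CPM in the WT library. The microRNA gene Mir29a had 0 counts in both, which checks neither genotype label, since so short a transcript is seldom counted in such a library. Xist, which coats the silenced X, had 0 counts in the KO library and 4288 in the WT library, and the Y-linked gene Ddx3y had 376 counts in the KO library and 67 in the WT library. The Y-linked genes Kdm5d (310 in KO and 30 in WT) and Eif2s3y (280 in KO and 50 in WT) went the same way. So did Uty (126 in KO and 17 in WT). Y-linked transcripts were thus counted in both libraries, and Xist in the WT library alone. This difference in sex-linked transcripts runs along with the genotype labels, and its part in the myeloid difference was not tested.

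The sequence of the deleted microRNA and the positions where it could pair with a myeloid transcript come first, since such a site is what the microRNA is known to pair with. The mature strand, from RefSeq (chr6:31062673-31062694, minus strand, GRCm38.p6), is shown with its seed, bases 2 to 8, in capitals.
mmu-miR-29a-3p: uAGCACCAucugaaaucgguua
The related microRNAs miR-29b-3p and miR-29c-3p have the same seed, so a match to it is not particular to miR-29a. The matching heptamer TGGTGCT was searched on the sense strand of the longest annotated 3' end of each protein-coding gene. It was found in 1 of 37 members, the actin-bundling protein gene Lcp1, against 1860 of 11585 protein-coding genes past the count minimum, or 16.1%. These shares are not on a like footing. The 37 include 3 genes under the minimum, and the lengths searched were not matched between members and other genes. Among members the length ran from 108 bases (Coro1a) to 2965 (Cybb), and a longer sequence is likelier to hold a heptamer. The site of Lcp1 lies at chr14:75229383-75229411 (plus strand, GRCm38, 3' untranslated exon sequence), with the heptamer in capitals.
Lcp1 site: gggtcagcacaTGGTGCTcccaggatgca
The other 36 transcripts held no such heptamer in the searched sequence.

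Promoters are shown next, since the gene of the lineage factor PU.1 is one of the members. The members were chosen as known myeloid genes, so their motif counts do not bear on the difference between the libraries. A part of PU.1 in that difference was not tested. The RefSeq table of promoters (GRCm38.p6) held 28 of the 37 genes. The core of the PU.1 binding sequence, GAGGAA on either strand, was present in the 300 bases around the annotated starts of 16 of these 28 genes (57.1%). It was present in 31.3% of 27025 genes of the table and in 30.1% of the 9281 that passed the count minimum. In all, 6 motifs were searched on both strands, and GAGGAA was picked for printing after their counts were seen. The others that overlap it are GAGGAAGT, in 1 of 28 genes (3.57%) and 3.69% of the whole table, AGGAAGTG, in 2 (7.14%) and 4.68%, AGAGGAAG, in 6 (21.4%) and 5.22%, and GGAAGT, in 13 (46.4%) and 26.5%. The site of AP-1 factors, TGACTCA, was in 2 (7.14%) and 5.95%. Of the 16 genes with GAGGAA, 14 were higher and 2 were under the minimum. Of the 12 without it, 9 were higher, 2 were on neither side and 1 was under the minimum. A match is a description of the letters and not of a bound site. The 250 bases before the start are given for 3 higher genes that hold the core and for 2 that do not, Mpeg1, which was higher, and Mertk, which was not, with GAGGAA or its reverse complement in capitals.
Cd53 (chr3:106790150-106790399, minus strand): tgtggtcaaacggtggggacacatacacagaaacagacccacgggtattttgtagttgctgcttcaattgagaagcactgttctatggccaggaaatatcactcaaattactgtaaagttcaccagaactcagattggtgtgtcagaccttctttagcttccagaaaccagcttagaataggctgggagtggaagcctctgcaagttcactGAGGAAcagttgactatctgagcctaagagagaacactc
Fcgr3 (chr1:171059404-171059653, minus strand): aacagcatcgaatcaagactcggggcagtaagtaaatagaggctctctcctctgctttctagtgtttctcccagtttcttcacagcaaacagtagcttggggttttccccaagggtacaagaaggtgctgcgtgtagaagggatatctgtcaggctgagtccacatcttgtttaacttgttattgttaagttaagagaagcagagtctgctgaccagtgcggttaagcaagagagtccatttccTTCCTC
Trem2 (chr17:48346151-48346400, plus strand): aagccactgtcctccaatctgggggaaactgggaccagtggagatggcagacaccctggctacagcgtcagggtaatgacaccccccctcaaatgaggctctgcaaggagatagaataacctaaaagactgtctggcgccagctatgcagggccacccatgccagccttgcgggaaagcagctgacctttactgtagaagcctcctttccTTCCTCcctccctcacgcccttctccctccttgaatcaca
Mpeg1 (chr19:12460520-12460769, plus strand): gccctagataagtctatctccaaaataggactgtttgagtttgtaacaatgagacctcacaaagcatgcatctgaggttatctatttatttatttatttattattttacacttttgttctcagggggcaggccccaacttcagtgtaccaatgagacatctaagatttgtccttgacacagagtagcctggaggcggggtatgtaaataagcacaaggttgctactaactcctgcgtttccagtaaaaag
Mertk (chr2:128698665-128698914, plus strand): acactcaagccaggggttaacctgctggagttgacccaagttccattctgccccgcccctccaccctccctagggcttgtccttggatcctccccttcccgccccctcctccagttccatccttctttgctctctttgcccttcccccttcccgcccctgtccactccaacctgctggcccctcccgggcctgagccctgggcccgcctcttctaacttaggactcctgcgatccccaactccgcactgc

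Most of the macrophage genes stood higher in the KO library, and each of the 10 roles they fall into held 2 or more that did. Of the 37 genes, 35 had a CPM ratio above 1 and 2 a ratio below 1, Cd14 and Tmem119. Summed over all 37, they took 2795 CPM in the KO library and 1119 CPM in the WT library, a ratio of 2.50 (2.46 to 2.53). That sum was 0.280% of all counts in the KO library and 0.112% in the WT library. The lysozyme gene Lyz2 and the glycoprotein gene Gpnmb made up 63.6% of the sum in the KO library and 59.6% in the WT library. Without these, the other 35 genes took 1018 CPM in the KO library and 453 CPM in the WT library, a ratio of 2.25 (2.20 to 2.30). In bulk libraries such as these, more cells of a type and more RNA per cell cannot be told apart.

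The minimum was met by 34 of the 37 genes: 29 stood higher at the 2-fold threshold, 0 lower and 5 on neither side. Among all 12382 genes past the minimum, 4.47% were higher and 2.82% were lower. The members and thresholds were chosen with earlier results of these data known, so this contrast is a description and no independent evidence. A log2 ratio of 2 or more was reached by 14 members, against 0.832% of all genes, and a log2 ratio above 0 by 32, against 55.0%. The median log2 ratio of the 34 was 1.89, with quartiles of 1.46 and 2.26, beside a median of 0.06 and quartiles of -0.25 and 0.37 over all genes. A total of 11 members passed the minimum through the KO library alone, so that 10 of the 29 could enter only by being high there. With the minimum required in both libraries, 19 of 23 members were higher, against 3.06% of 11602 genes. The 3 members under the minimum were Aif1, Clec4e and P2ry12.

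**Figure D1:**
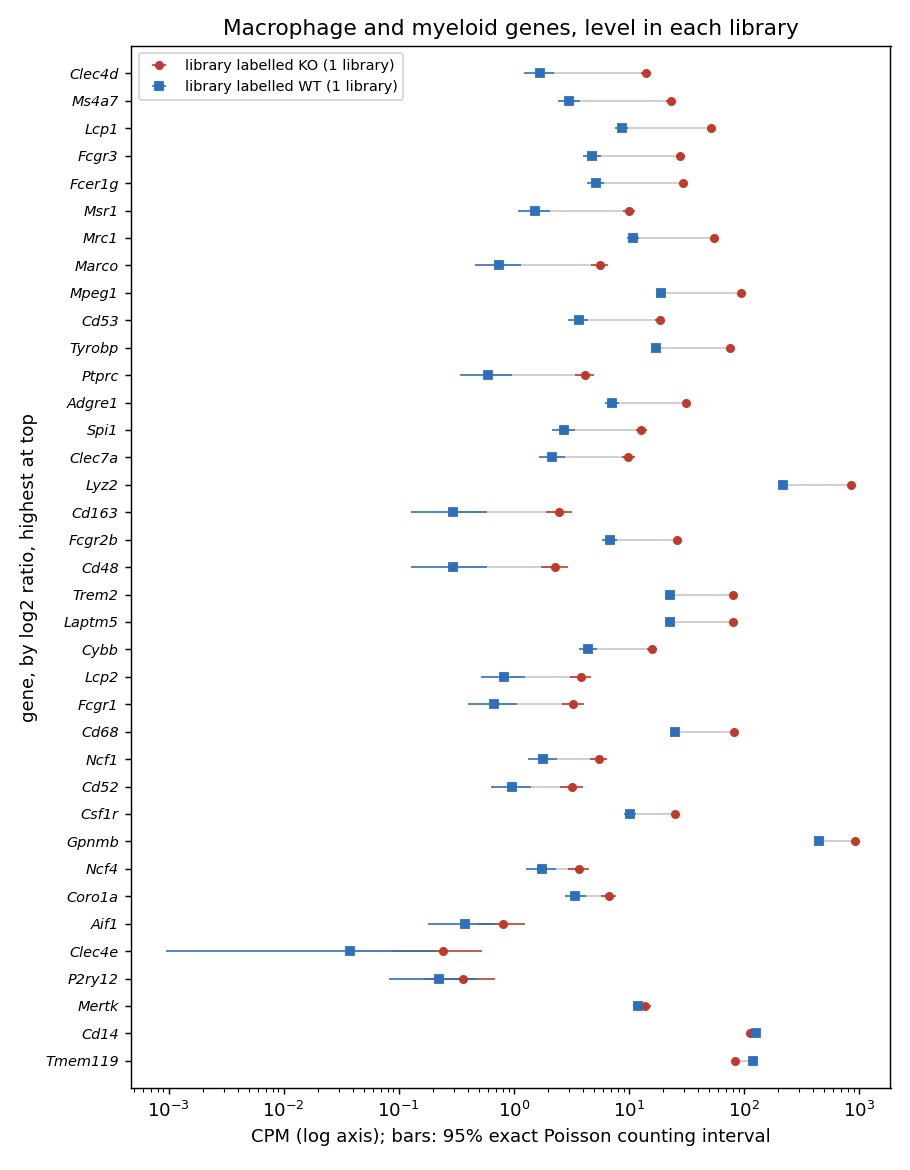
Level of each of the 37 genes in the KO library (red circles) and the WT library (blue squares), in CPM on a log axis, with 95% exact Poisson counting intervals as bars, ordered by log2 ratio. The red circle lies right of the blue square in 35 rows, and in the bottom rows Cd14 (114 CPM in KO and 127 in WT) and Tmem119 (82.9 CPM in KO and 121 in WT) lie the other way round.

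Fc receptors bind the constant part of antibodies and pass the signal through the shared chain Fcer1g or, for the inhibitory receptor Fcgr2b, damp it. All 4 were higher in the KO library, and together they took 87.0 CPM there and 17.5 CPM in the WT library (4.98-fold, 4.51 to 5.52). Fcgr3, a low-affinity activating receptor, had 690 counts in the KO library and 128 in the WT library, a ratio of 5.81 (4.80 to 7.07). Fcer1g had 735 counts in the KO library and 139 in the WT library (5.70-fold, 4.75 to 6.88). The activating receptor and its signalling chain thus stood at nearly the same ratio, with overlapping intervals. The inhibitory receptor gene Fcgr2b had 657 counts in the KO library and 183 in the WT library (3.87-fold, 3.28 to 4.58). Its interval lay wholly below those of Fcgr3 and Fcer1g, so these genes stood higher relative to it in the KO library. Fcgr1, the high-affinity receptor gene, had 82 counts in the KO library and 18 in the WT library (4.91-fold, 2.92 to 8.69), a call lost with 2 CPM added (log2 ratio 0.99). Fcgr1 is an activating receptor too, and its interval holds that of Fcgr2b. Fcgr2b, Fcgr3 and Fcer1g lie near each other on chromosome 1, between positions 170958617 and 171234365 (GRCm38), while Fcgr1 lies on chromosome 3. Fcgr2b and Fcgr3 have similar extracellular domains, so some reads could be shared between them.

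The ITAM adaptor gene Tyrobp and its partner Trem2, a receptor for lipids and apolipoproteins, were among the better counted members. Tyrobp had 1888 counts in the KO library and 458 in the WT library, a ratio of 4.44 (4.01 to 4.93). Trem2 had 2003 counts in the KO library and 613 in the WT library, a ratio of 3.52 (3.21 to 3.86). These intervals do not overlap, so the adaptor differed more than this receptor. Of 14 genes acting in ITAM signalling, 9 passed the minimum, of which 4 were higher, 0 lower and 5 neither, with a median log2 ratio of 0.98. The guanine nucleotide exchange factor gene Vav1 had 155 counts in the KO library and 23 in the WT library (7.26-fold, 4.67 to 11.8), and the adaptor gene Pik3ap1 256 in KO and 49 in WT (5.63-fold, 4.13 to 7.81). The phosphatase gene Inpp5d was 4.15-fold higher (3.13 to 5.59) and the kinase gene Lyn 3.02-fold higher (2.45 to 3.73). The broadly expressed kinase gene Prkcd had a log2 ratio of 0.32 and Skap2 one of 0.47. The kinase gene Syk, whose product binds phosphorylated ITAMs, had a log2 ratio of 0.82. Lyn and Syk were chosen after their values were seen.

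C-type lectin receptors recognise fungal and bacterial sugars and glycolipids. Clec4d had 352 counts in the KO library and 45 in the WT library, a ratio of 8.43 (6.17 to 11.8). The beta-glucan receptor gene Clec7a, which encodes dectin-1, had 246 counts in the KO library and 58 in the WT library (4.57-fold, 3.42 to 6.19). Clec4e, the receptor gene next to Clec4d on chromosome 6, had 6 counts in the KO library and 1 in the WT library, and no difference was detectable at this depth (6.47-fold, 0.784 to 297). Clec4d and Clec4e lie between positions 123262111 and 123289870, yet Clec4d was far better counted. Of 8 further C-type lectin receptor genes, 2 passed the minimum and both were higher. Clec4n, which encodes dectin-2, had 393 counts in the KO library and 61 in the WT library (6.94-fold, 5.29 to 9.25), and Clec12a had 107 in KO and 28 in WT (4.12-fold, 2.70 to 6.49).

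Among scavenger and clearance receptors a wide split was seen. Mrc1, the mannose receptor gene of alternatively activated and resident macrophages, had 1377 counts in the KO library and 291 in the WT library, a ratio of 5.10 (4.49 to 5.81). The class A scavenger receptor genes Msr1 (251 counts in the KO library and 41 in the WT library, 6.60-fold, 4.73 to 9.42) and Marco (139 in KO and 20 in WT, 7.49-fold, 4.67 to 12.6) were higher too. The haemoglobin scavenger receptor gene Cd163 had 62 counts in the KO library and 8 in the WT library (8.35-fold, 3.99 to 20.2), a call lost with 2 CPM added (log2 ratio 0.97) and with the authors' FPKM (0.79). These 4 intervals overlap. Mertk, a receptor for the phosphatidylserine bridges Gas6 and Pros1 that macrophages share with the pigment epithelium, had 346 counts in the KO library and 324 in the WT library (1.15-fold, 0.986 to 1.34). The interval of Mertk includes 1 and lies below those of the other 4. The endotoxin co-receptor gene Cd14 had 2828 counts in the KO library and 3412 in the WT library, which is 1.12-fold lower (1.06 to 1.18).

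The partners of clearance followed no single direction. Of 9 genes of clearance receptors and bridging ligands, 9 passed the minimum, 2 were higher, 0 were lower and the median log2 ratio was -0.14. Stab1, a scavenger receptor gene of macrophages and sinusoidal endothelium, had 2650 counts in the KO library and 684 in the WT library (4.17-fold, 3.84 to 4.55). Cd36, a fatty acid and oxidised lipoprotein receptor gene, had 1158 in KO and 225 in WT (5.55-fold, 4.80 to 6.43). The abundant genes Lrp1 and Gas6 had log2 ratios of -0.14 and -0.49, and the Mertk relative Axl one of 0.38.

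**Figure D2:**
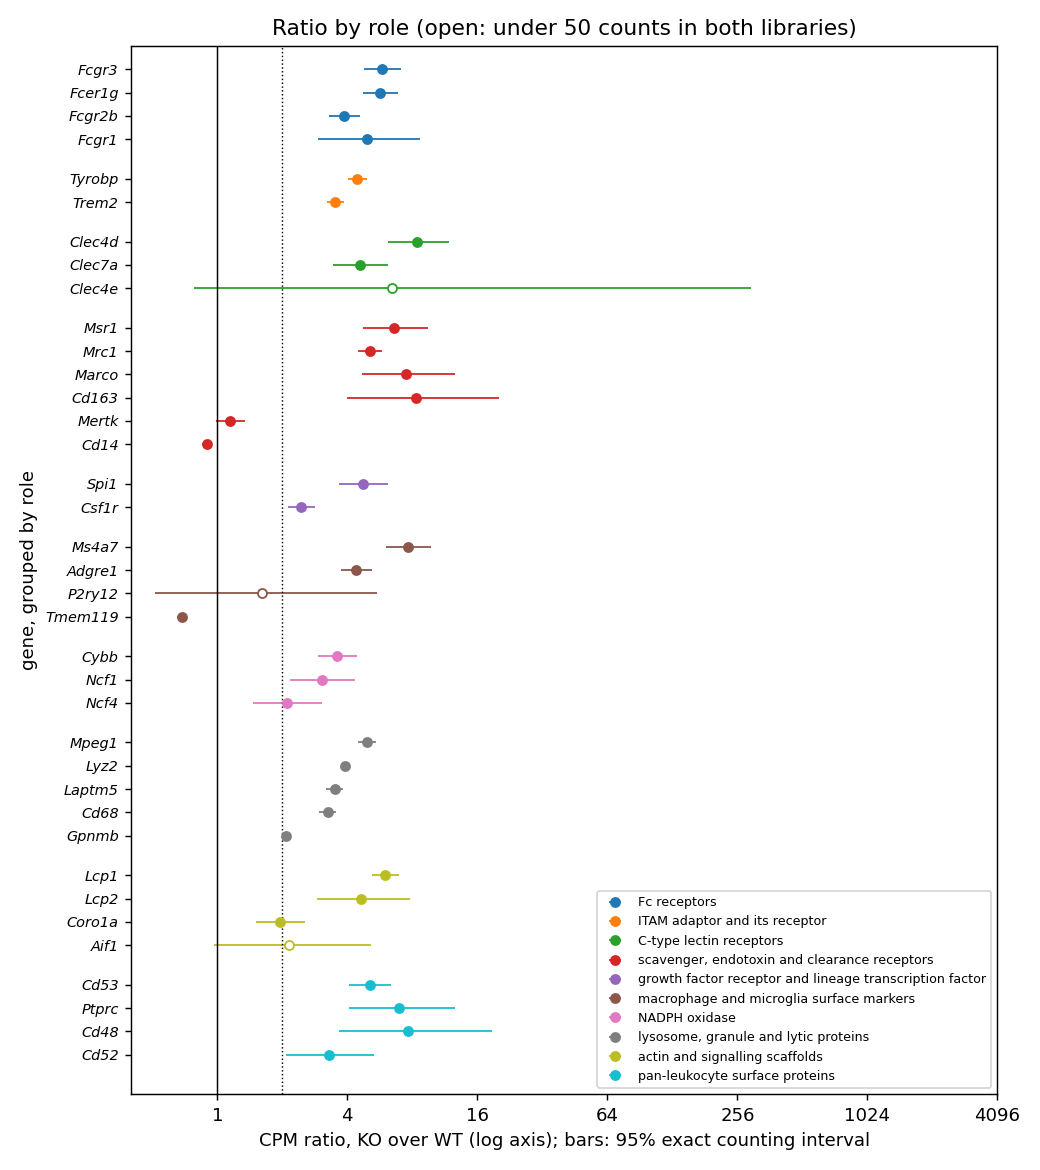
CPM ratio of each gene, KO over WT, on a log axis with 95% exact counting intervals, grouped and coloured by role; open circles mark the 3 genes under 50 counts in both libraries, the solid line a ratio of 1 and the dotted line a ratio of 2. Within the scavenger group Mertk (1.15) and Cd14 (0.893) lie apart from Msr1, Mrc1, Marco and Cd163, which lie between 5.10 and 8.35.

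Csf1r and Spi1, the growth factor receptor and lineage factor genes, were both higher. Spi1 had 320 counts in the KO library and 73 in the WT library, a ratio of 4.72 (3.65 to 6.18). Csf1r had 624 counts in the KO library and 274 in the WT library, a ratio of 2.45 (2.13 to 2.84). The receptor gene thus differed less than the lineage factor gene, with intervals that do not overlap. Csf1r overlaps the gene Hmgxb3 on the opposite strand (1079 counts in the KO library and 1007 in the WT library), and reads of the 2 genes cannot be told apart without strand. The ligand genes of Csf1r were near level. Csf1 had 26843 counts in the KO library and 25427 in the WT library (log2 ratio 0.19), and Il34 had 671 in KO and 626 in WT (log2 ratio 0.20). Of the 6 colony-stimulating factor and receptor genes, 5 passed the minimum and 0 were higher or lower by 2-fold. The granulocyte factor gene Csf3 had a log2 ratio of -0.49, and the receptor genes Csf2rb and Csf2ra had 0.92 and 0.38. Of 12 further transcription factor genes used by myeloid cells, 9 passed the minimum, 1 was higher, 0 were lower and the median log2 ratio was 0.01. The one higher was Irf8, a partner of PU.1, with 130 counts in the KO library and 60 in the WT library (2.33-fold, 1.71 to 3.23), while Mitf, Cebpb and Cebpa had log2 ratios of 0.69, -0.60 and -0.66.

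Among the 4 surface marker genes, 2 were higher, 1 was on neither side and 1 was under the minimum. Adgre1, which encodes the mouse macrophage antigen F4/80, had 781 counts in the KO library and 191 in the WT library, a ratio of 4.41 (3.76 to 5.19). Ms4a7, a membrane protein gene typical of macrophages outside the microglial lineage, had 574 counts in the KO library and 81 in the WT library (7.64-fold, 6.04 to 9.76). Both libraries contained these transcripts, at a higher level in the KO library. The microglial purinergic receptor gene P2ry12 had 9 counts in the KO library and 6 in the WT library, and the ratio of 1.62 was not distinguishable from 1 (0.514 to 5.52). Tmem119, a marker of microglia in nervous tissue that is also known from bone-forming cells, had 2063 counts in the KO library and 3245 in the WT library, which is 1.46-fold lower (1.38 to 1.54). With a correction for transcript GC content and length, the log2 ratio of Tmem119 went from -0.54 to -0.21. Its level, unlike that of P2ry12, was high in both.

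Of 7 further genes used as microglial markers, 3 passed the minimum, 1 was higher, 1 lower and 1 neither. Fcrls, an Fc receptor-like gene of mouse microglia and other macrophages, had 209 counts in the KO library and 53 in the WT library (4.25-fold, 3.13 to 5.86). Olfml3 had 1355 counts in KO and 3598 in WT, which is 2.46-fold lower in the KO library (2.31 to 2.63). The purinergic receptor gene P2ry13 was under the minimum, with 40 counts in KO and 9 in WT, and the interval of its ratio lay above 1 (4.79-fold, 2.29 to 11.2). The microglial transcription factor gene Sall1 (23 counts in the KO library and 10 in the WT library) and the lectin gene Siglech (1 in KO and 0 in WT) were under the minimum too, as was the receptor gene Gpr34 (15 in KO and 11 in WT).

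The NADPH oxidase of phagocytes makes superoxide in the phagosome. Its catalytic subunit gene Cybb had 396 counts in the KO library and 119 in the WT library, a ratio of 3.59 (2.91 to 4.44). The cytosolic subunit gene Ncf1 had 136 counts in the KO library and 48 in the WT library (3.05-fold, 2.18 to 4.34), and Ncf4 had 92 in KO and 47 in WT (2.11-fold, 1.47 to 3.06). Ncf4 did not reach the log2 threshold after 0.5 CPM was added (log2 ratio 0.90), and all 3 intervals overlap. The call of Ncf1 was lost with 2 CPM added (log2 ratio 0.98) and with the authors' FPKM (0.99). Ncf1 overlaps Gtf2ird2 on the opposite strand (228 counts in the KO library and 355 in the WT library). Of 5 partner genes, 2 were higher and 3 neither. The GTPase gene Rac2 had 264 counts in KO and 101 in WT (2.82-fold, 2.23 to 3.58). The widely expressed partners had log2 ratios of 0.41 for Rac1 and -0.48 for Cyba.

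Lysosomal, granule and lytic protein genes held the most counted members, and all 5 were higher. Lyz2, the macrophage lysozyme gene, had 21052 counts in the KO library and 5827 in the WT library, a ratio of 3.89 (3.78 to 4.01). Its near-identical neighbour Lyz1 had 21 counts in the KO library and 8 in the WT library, so a share of reads could be misplaced between them. Gpnmb, a transmembrane glycoprotein gene of lipid-laden macrophages, melanocytes and bone cells, had 23174 counts in the KO library and 12036 in the WT library (2.07-fold, 2.03 to 2.12). Gpnmb was the least different of the 29 higher genes, and its call is lost under 3 other ways of processing (log2 ratio 0.84 to 0.99). The perforin-like gene Mpeg1 had 2339 counts in the KO library and 509 in the WT library (4.95-fold, 4.50 to 5.46). The lysosomal membrane genes Laptm5 (2002 counts in KO and 616 in WT, 3.50-fold, 3.20 to 3.84) and Cd68 (2035 in KO and 676 in WT, 3.24-fold, 2.97 to 3.54) had overlapping intervals, both below that of Mpeg1. This order depends on the processing. With a correction for transcript GC content and length, the log2 ratios were 1.99 for Mpeg1, 2.01 for Laptm5 and 1.81 for Cd68.

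Actin-binding and signalling scaffold genes of leukocytes were higher for 2 of 3 that passed the minimum. Lcp1, the plastin gene that holds the miR-29 heptamer printed above, had 1301 counts in the KO library and 234 in the WT library, a ratio of 5.99 (5.21 to 6.92). Members without a heptamer had ratios on both sides of it, such as Fcgr3 (5.81) and Msr1 (6.60). A part of the heptamer in the ratio of Lcp1 was not tested. The adaptor gene Lcp2, which encodes SLP-76, had 95 counts in the KO library and 22 in the WT library (4.65-fold, 2.90 to 7.77), a call lost with the authors' FPKM (log2 ratio 0.98). Coro1a, a coronin gene of leukocytes, had 167 counts in KO and 92 in WT (1.96-fold, 1.51 to 2.55) and shares bases with Bola2 on the other strand (3540 counts in KO and 4406 in WT). Aif1, which encodes the microglia and macrophage antigen IBA1, had 20 counts in the KO library and 10 in the WT library, and the interval of its ratio included 1 (0.963 to 5.16).

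The 4 pan-leukocyte genes were higher at the settings used here, and 3 of them lost the call under another. The tetraspanin gene Cd53 had 462 counts in the KO library and 98 in the WT library, a ratio of 5.08 (4.08 to 6.38). Ptprc, which encodes the leukocyte phosphatase CD45, had 103 counts in the KO library and 16 in the WT library (6.94-fold, 4.07 to 12.6). The adhesion gene Cd48 had 57 counts in KO and 8 in WT (7.68-fold, 3.64 to 18.6), and the small glycoprotein gene Cd52 had 79 in KO and 26 in WT (3.27-fold, 2.08 to 5.31). With 2 CPM added, Cd48 and Cd52 lost the call (log2 ratios 0.90 and 0.80), and with the authors' FPKM so did Ptprc (0.45). All 4 intervals overlap, and together the genes took 28.2 CPM in the KO library and 5.52 CPM in the WT library.

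By the authors' FPKM, the order of the genes was much alike in both libraries. FPKM is fragments scaled to library size and to a gene length that the sources used here do not define. Lyz2 was first in both, at 654 in the KO library and 175 in the WT library. In the KO library it was followed by Gpnmb (146), Tyrobp (116), Cd14 (73.6) and Cd68 (66.2). In the WT library it was followed by Cd14 (85.6), Gpnmb (72.9), Tmem119 (55.3) and Tyrobp (27.1). The median over the 37 genes was 4.86 FPKM in the KO library and 1.11 FPKM in the WT library, and 12 genes in KO and 6 in WT reached 10 FPKM. Ptprc stood near the bottom, at 0.230 FPKM in the KO library and 0.0345 in the WT library. Beside its 4.14 CPM in the KO library, this FPKM implies a length well above its longest transcript of 5740 bases. The place of such a gene in the order thus depends on the length used. Across the 37 genes, which are not independent replicates and share the 2 libraries, FPKM correlated between libraries with Spearman's rho of 0.942, as a description.

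The ratios were not uniform beyond counting error. The median CPM ratio of the 34 genes was 4.51, with quartiles of 3.25 and 5.78. The interval held this median for 14 genes, lay wholly above it for 7 and wholly below it for 13. The log2 ratio of the 34 fell with transcript GC content (Spearman's rho -0.513), as it did over all genes (-0.441). The part of this trend in the spread was not tested. As shares of the summed counts of all 37, Lyz2 took 30.3% in the KO library and 19.4% in the WT library, Cd14 4.07% in KO and 11.4% in WT, Tmem119 2.97% in KO and 10.8% in WT, and Gpnmb 33.3% in KO and 40.1% in WT. Cd14, Tmem119 and Mertk were the members past the minimum that stayed within 1.5-fold.

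**Figure D3:**
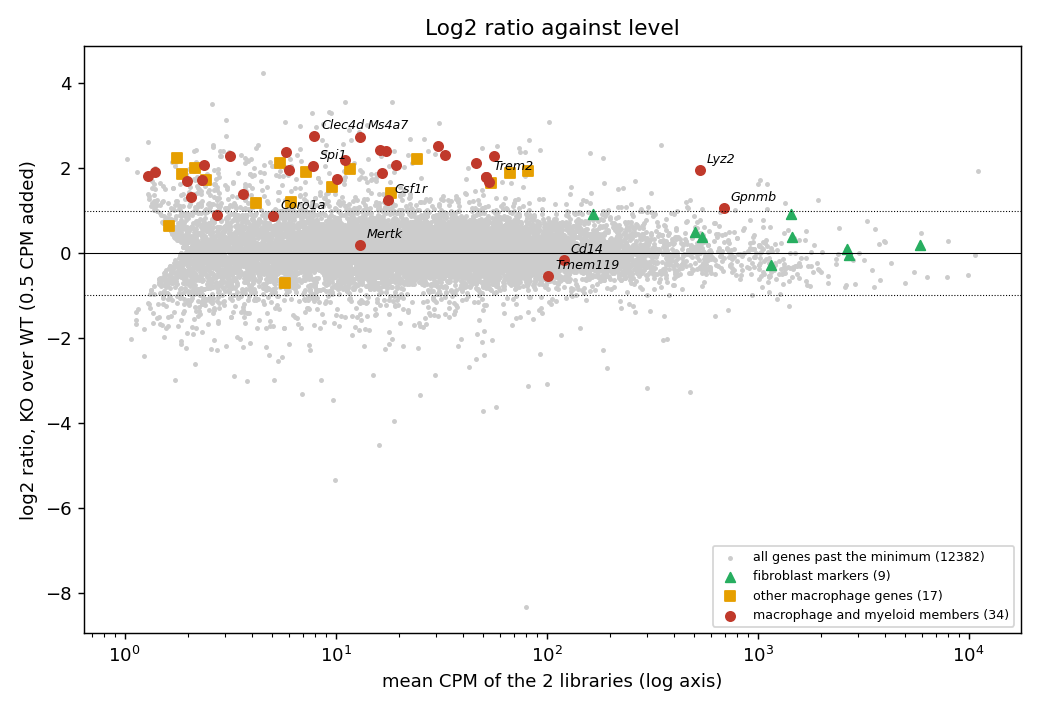
Log2 ratio, KO over WT (0.5 CPM added), against the mean CPM of the 2 libraries on a log axis for 12382 genes (grey), 34 members (red circles), 17 other macrophage genes (orange squares) and 9 fibroblast markers (green triangles); dotted lines mark 2-fold. Of the 34 members, 29 lie above the upper dotted line, and Ncf4 (0.90), Coro1a (0.88), Mertk (0.19), Cd14 (-0.16) and Tmem119 (-0.54) lie between the dotted lines, while the fibroblast markers, whose log2 ratios have a median of 0.37, also lie between them.

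Macrophage genes outside the member list showed a similar size of difference. Of 21 such genes, 17 passed the minimum, 15 were higher, 0 were lower and 2 were neither, with a median log2 ratio of 1.86. These lists were chosen with earlier results known, so they are no independent evidence. The complement genes C1qa (3232 counts in the KO library and 903 in the WT library, log2 ratio 1.93) and C1qc (2627 in KO and 751 in WT, log2 ratio 1.90) were the most counted. The lysosomal protease gene Ctss had 1000 counts in KO and 223 in WT (4.83-fold, 4.18 to 5.61). The integrin gene Itgam, which encodes CD11b, had 81 counts in KO and 8 in WT (10.9-fold, 5.28 to 26.1), and Folr2, a folate receptor gene of resident macrophages, had 228 in KO and 46 in WT (5.34-fold, 3.88 to 7.50). The exception in direction was Pld4, with a log2 ratio of -0.71. The fractalkine receptor gene Cx3cr1 (5 counts in KO and 0 in WT) and the embryonic-lineage receptor gene Timd4 (4 in KO and 0 in WT) stayed under the minimum, and Lyve1 had 0 counts in both.

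Among genes known from lipid-associated macrophages, 8 of 9 passed the minimum, and 2 were higher. Spp1, the secreted phosphoprotein osteopontin, was the most counted, with 436057 counts in the KO library and 123307 in the WT library (3.81-fold, 3.79 to 3.83). Fabp5, a fatty acid binding protein gene, had 2056 in KO and 1027 in WT (2.16-fold), and the lipase gene Lpl had a log2 ratio of 0.95. Fibroblasts and bone cells also express Spp1, and the cathepsin genes Ctsb and Ctsd, with log2 ratios of 0.58 and 0.20, are expressed widely.

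Defining markers of lymphocytes and neutrophils were at or near 0, while single genes of those lists were higher. Of 11 neutrophil genes, 5 had 0 counts in both libraries, among them Mpo, Elane and S100a9, and the summed level was 61.9 CPM in the KO library and 52.2 CPM in the WT library, mostly from Camp. The calprotectin subunit gene S100a8 had 248 counts in KO and 98 in WT (2.73-fold, 2.15 to 3.48). All 5 natural killer cell genes had 0 counts in both. The T cell genes Cd3e, Cd3g and Cd8a and the B cell genes Ms4a1 and Cd79b likewise had 0 counts in each library, a result that permits levels as high as 0.121 CPM in the KO library and 0.112 CPM in the WT library (3 counts each). Cd4 alone of the T cell list passed the minimum, with 221 counts in the KO library and 53 in the WT library (4.49-fold, 3.32 to 6.18). The T cell kinase gene Lck went the other way under the minimum, with 10 counts in KO and 27 in WT (0.399-fold, 0.172 to 0.851). The B cell genes Pax5 (12 in KO and 18 in WT) and Cd79a (10 in KO and 8 in WT) were under it too. The monocyte gene Chil3 had 0 counts in both, Ly6c2 1 in KO and 0 in WT, and Ccr2 0 in KO and 1 in WT, while the monocyte list summed to 312 CPM in the KO library and 207 CPM in the WT library, mostly from the proteoglycan gene Vcan (7495 counts in KO and 4884 in WT). The member of that list that passed the threshold was Plac8, which is 2.42-fold lower (2.09 to 2.81). The dendritic cell list summed to 13.4 CPM in KO and 8.95 in WT, with 2 of 7 genes past the minimum and 0 higher or lower.

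Lists of other cell types differed as well, in both directions. The platelet list summed to 48.9 CPM in the KO library and 26.3 CPM in the WT library, with 3 of 4 genes past the minimum, 2 higher and Gp9 at 0. The chemokine genes Pf4 (799 counts in KO and 152 in WT, 5.66-fold, 4.76 to 6.78) and Ppbp (129 in KO and 35 in WT, 3.97-fold, 2.72 to 5.95) were the higher ones, and the integrin gene Itga2b had a log2 ratio of -0.71. The endothelial list summed to 48.0 CPM in the KO library and 26.1 CPM in the WT library, with 3 of 6 measured genes higher, 0 lower and a median log2 ratio of 0.95. The higher ones were Kdr (58 counts in KO and 8 in WT), Cdh5 (576 in KO and 175 in WT) and Pecam1 (104 in KO and 38 in WT). The osteoclast list summed to 361 CPM in the KO library and 164 CPM in the WT library, mostly from the protease gene Ctsk (2.25-fold, 2.16 to 2.33), while Calcr had 0 counts in both and Dcstamp 0 in KO and 1 in WT. The mast cell list summed to 5.23 CPM in KO and 4.29 in WT, with 1 of 2 measured genes, Cma1 (50 counts in KO and 20 in WT), higher. Cma1 was only just at the minimum and at the threshold (log2 ratio 1.01). Like Ppbp, Kdr and Pecam1, it passed the minimum through the KO library alone. The melanocyte and pigment epithelium list, relevant to Gpnmb and Mertk, summed to 4.86 CPM in the KO library and 7.54 CPM in the WT library, with Tyr at 21 counts in KO and 80 in WT, Rpe65 at 0 in both and Dct at 2 counts in KO and 0 in WT. The red blood cell list summed to 0.161 CPM in KO and 0.0373 in WT, and the Mueller glia and astrocyte list to 859 CPM in KO and 940 in WT with Aqp4 at 0. Their part in the difference of the members was not tested.

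**Figure D4:**
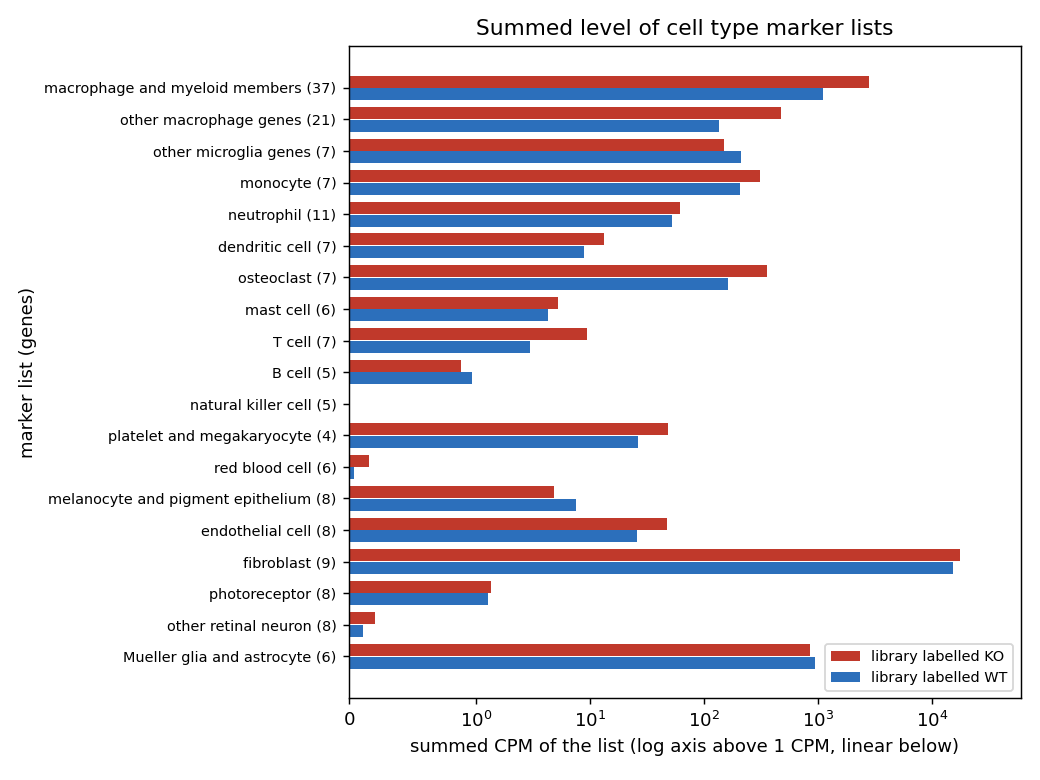
Summed CPM of the members and of 18 marker lists in the KO library (red, upper bar) and the WT library (blue, lower bar), on an axis that is linear below 1 CPM and logarithmic above; the number of genes is in brackets. The members reach 2795 CPM in KO and 1119 in WT, fibroblast markers 17638 CPM in KO and 15318 in WT, and the natural killer cell list 0 in both.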

How the data were processed

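RNA-seq was run on 1 library per genotype. Per the labels' protocols, Ribo-Zero removed ribosomal RNA, and the library kit, NEBNext Ultra RNA, does not mark strand. HISAT2 and the genome mm10 (GRCm38) are named in the submitters' processing notes. The counter, annotation and strand setting were not given in the sources used here. Deposited tables hold, per the file headers, whole-number counts and FPKM for each gene, with no statement of how FPKM was scaled.

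CPM is each count over its library total. Of 52636 genes, 4 whose count-to-FPKM quotient disagreed by over 1% between libraries were dropped. No count test was run, since each group has 1 library; edgeR 4.0.16 (R 4.3.3) gave only TMM scaling factors. Positions, transcripts and 3' ends came from GENCODE for GRCm38; promoters and microRNAs from RefSeq. Rows that share a symbol (Itgam) were summed in the comparison lists. The members, lists and thresholds were chosen with earlier results of these data known. All 37 members are named; of the other lists, those with the largest log2 ratio (up to 3), the highest CPM (up to 2) or an absence used as a check, except a few that are not reported here. Other genes named, and the promoter motif printed, were chosen after their values were seen. The alternatives were other scalings, pseudocounts, minimums and thresholds, the authors' FPKM, a correction for transcript GC content and length, and 2 added after the data were seen. The procedure was run on simulated counts that held counting error alone, with set changes larger than 2-fold in well counted genes. That run cannot check calls near the 2-fold threshold or make up for the lack of replicates. Software was scipy 1.17.1, pandas 2.3.3, numpy 2.4.6, matplotlib 3.10.9 and Python 3.11.15.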

Additional observations from a re-analysis of the deposited data

How the results depend on the processing

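No paired analysis was possible because each group has 1 library. The count of members lower by 2-fold was 0 under every alternative run. The count of members higher by 2-fold was 29, and ran from 21 (of 24 past a minimum of 200 counts) to 31 (1.5-fold threshold), except that a 4-fold threshold left 14. It was 24 with 2 CPM added and with the authors' FPKM, and 27 without members that share bases with a counted gene, an alternative added after the data were seen. The summed ratio of 2.50, and of 2.16 without Lyz2, was 2.41 and 2.09 with TMM scaling, 2.39 and 2.07 with median-of-ratios scaling, and 2.67 and 2.06 with the authors' FPKM. Without both Lyz2 and Gpnmb, also added after the data were seen, it was 2.25. These scalings moved the median log2 ratio of all genes by -0.05 (TMM) and -0.06 (median of ratios). Of 203 member values called higher and recomputed, 0 changed sign and 12 lost the call, with log2 ratios between 0.45 and 0.99. The lowest was Ptprc with the authors' FPKM, where 0.5 FPKM was added to 0.230 in KO and 0.0345 in WT. Of the uncalled members, Ncf4 reached 1.04 with 0.1 CPM added and 1.14 with the GC and length correction, and Coro1a 1.19 with that correction. Members at a few counts, such as Clec4e, are limited by depth, and the lack of replicates limits all of them.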

Other observations

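Transcript GC content differed little between the members past the minimum (median 48.8%) and all genes tested (49.9%). Over all genes the log2 ratio fell with GC content (Spearman's rho -0.441), and over the 34 members rho was -0.513, both given as descriptions over genes of the same 2 libraries. The correction for GC content and length left 30 members higher by 2-fold, with a median log2 ratio of 1.73. Over the same members rho with transcript length was 0.005.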
